A study of Mus musculus with 8 samples.

Results

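Neural stem cells (NSCs) grown as secondary neurospheres for 3 days in rcCHIL3 were compared with NSCs grown for 3 days in MHM + GF. The comparison used 4 of the 8 arrays of the study, 2 for each medium, and the other 4 arrays held the same media at 7 days. A probe set was taken where 2 or more of the 4 arrays gave it a signal of 50 or higher, which kept 14580 of the 45037 probe sets that are not array controls. Of these, 12203 had such a signal on all 4 arrays, 689 passed only through rcCHIL3 and 829 only through MHM + GF. The cells came from mouse brain, adult according to the labels and embryonic or adult forebrain striatum according to the methods, and neither source names the strain or a genetic change for these cultures. MHM + GF is a serum-free medium with the growth factors EGF and FGF-2. The label for these 2 arrays is MHM without ECF-L, an older name of the chitinase-like protein CHIL3. The label for the other 2 is MHM with recombinant ECF-L, and by the methods this rcCHIL3 is medium conditioned for 1 day by HEK293T cells transfected with Chil3. HEK293T is a human embryonic kidney line. The study describes neurosphere assays of rcCHIL3 without added growth factors and names rcCHIL3 + GF as a separate medium. The array cultures are named rcCHIL3 alone. None of the 8 arrays carried cells grown in medium from untransfected HEK293T cells or in rcCHIL3 + GF. The effects of CHIL3, of conditioning by HEK293T cells and of a lack of growth factors therefore cannot be told apart here. Each array carried RNA from 1 of 2 independent experiments, and p-values measure the spread between these arrays.

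NSCs kept in EGF and FGF-2 divide as floating spheres, and on withdrawal of these factors they are known to leave the cell cycle and to start making glia and neurons. Growth draws on ribosomes, nucleotides, sterols and reduced sulfur, whereas resting and differentiating cells are known to turn over more of their content in lysosomes and to set up ion pumps, channels and matrix. The genes below are ordered by such roles, leaving aside cell cycle, oxygen response and neuroblast genes.

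Signals were brought to an average of 100 on every array and compared as log2(signal + 20) in a limma model with 1 mean for each of the 4 groups. A log2 change is rcCHIL3 minus MHM + GF at 3 days, is given with its standard error (SE), and is on the scale that includes the offset of 20, which makes changes of dim genes smaller. A gene is called higher or lower where the p adjusted over all 14580 probe sets by the Benjamini-Hochberg method was under 0.05. Of the 14580 probe sets 7556 were called (51.8%), 4109 higher (28.2%) and 3447 lower (23.6%). They gave 8429 genes, each represented by its brightest probe set. Of these genes 2565 were called higher, which is 30.4%, and 1951 lower, which is 23.1%. The counts in each gene list below are to be read against these 2 shares. The median change over all genes was 0.04. Changes of at least 1 log2 unit were rarer, with 314 genes higher (3.73%) and 374 lower (4.44%). The arrays of the 2 media did not overlap for 78.0% of the genes. A gene that reached 50 in only 1 medium was bound to differ, which holds for 775 genes, and counts of lists that hold such genes are no support for a difference. Some lists below hold such genes without their number being given. With the arrays on their deposited scale the split of calls turned, with 1569 genes higher and 1838 lower and a median of -0.03 (probe sets 2577 and 3361, 43.4% of calls higher against 54.4%), so the counts of a list on that scale are given where they differ by over 1.5 times or turn the order. Where both arrays of 1 medium were under 50, the signal there is only a bound, and the change is given as the mean of the other medium over 50 ("at least" so many fold). All other changes are on the log2 scale.

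Chil3 itself gave signals of 0.695 and 2.33 in MHM + GF and 1.31 and 0.673 in rcCHIL3, under the signal of 50 on all 4 arrays. The transcript of the added protein was thus at background in both media. Pearson correlation between the 2 arrays of a medium was 0.992 for MHM + GF and 0.994 for rcCHIL3, and 30.1% to 31.0% of all probe sets reached 50 on each of the 4 arrays. The 3' to 5' signal ratio of Gapdh, a sign of RNA integrity, was 0.848 and 0.854 in MHM + GF and 0.755 and 0.805 in rcCHIL3. Its part in the results was not tested.

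Genes were ranked by log2 change where their mean signal in the brighter medium was 200 or more, and the 10 largest rises came from unrelated families. Islr, which encodes a secreted leucine-rich repeat protein, had signals of 7.36 and 4.52 in MHM + GF and 325 and 342 in rcCHIL3. Gfap, the intermediate filament of astrocytes, had signals of 57.6 and 46.3 in MHM + GF and 842 and 978 in rcCHIL3, a log2 change of 3.69 (SE 0.09, adjusted p = 3.9e-10). S100a4, a calcium-binding protein tied to cell motility, gave 20.5 and 27.9 in MHM + GF and 463 and 504 in rcCHIL3. That both rcCHIL3 arrays stood above both MHM + GF arrays for these 3 genes was a condition of the ranking and is no further support. The other 7 of the first 10 rises in this ranking were Eva1a (at least 8.1-fold), Tagln3 (at least 15.3-fold), Hspb8 (at least 12.3-fold), Efemp1 (at least 6.4-fold), Rdh5 (2.93), Padi2 (2.86) and Aebp1 (at least 5.3-fold). Padi2 makes citrulline from arginine in proteins, Rdh5 is a retinol dehydrogenase and Eva1a is a lysosomal and endoplasmic reticulum protein.

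Car3, a carbonic anhydrase best known from muscle and fat, led the falls in this ranking, with signals of 689 and 849.8 in MHM + GF and 9.92 and 12.3 in rcCHIL3, at least 15.4-fold lower (adjusted p = 6.5e-10). A2m, a broad protease inhibitor of the extracellular space, gave 824 and 807 in MHM + GF and 73.6 and 73 in rcCHIL3. Next came Grm5 (at least 8.4-fold), Igfbp2 (-3.49), Slc6a11 (at least 10.5-fold), A2m (-3.16), the cell cycle genes Cdca3, Ccnb2 and Cenpa, Igfbp4 (at least 7.9-fold) and Anxa3 (at least 4.8-fold).

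**Figure D1:**
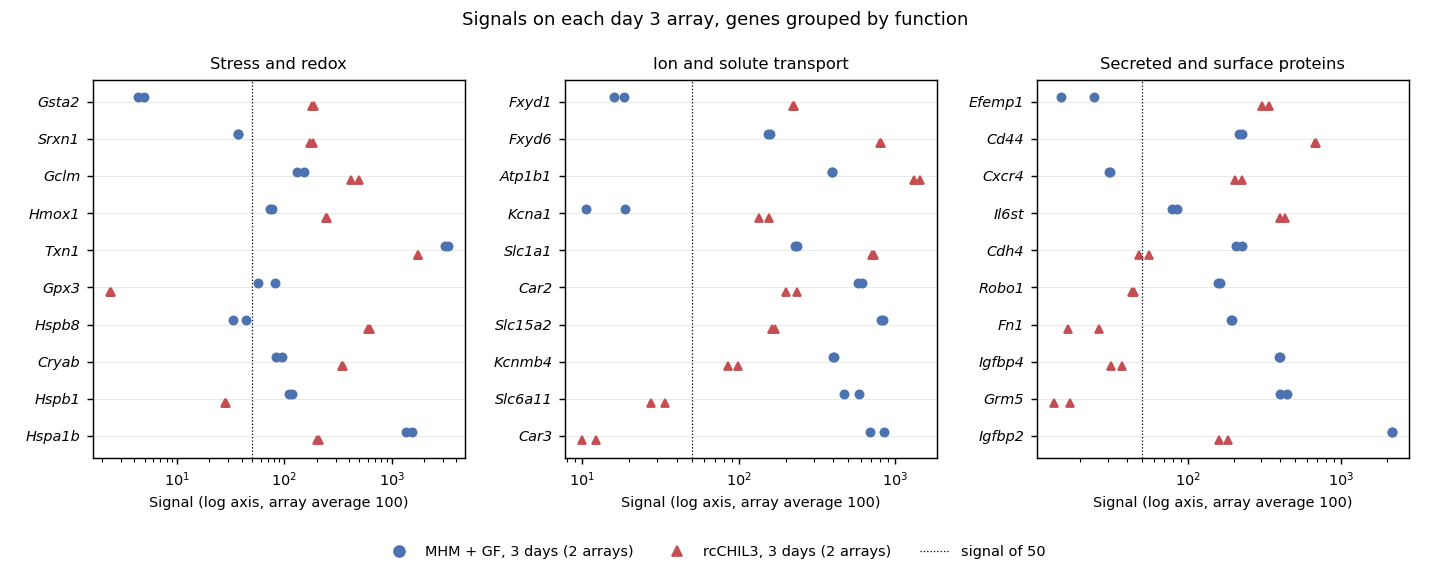
Signals of 30 genes on the 4 arrays of day 3, on a log axis, with circles for the 2 MHM + GF arrays and triangles for the 2 rcCHIL3 arrays. The dotted line marks a signal of 50. The genes were chosen with their changes known. The arrays of the 2 media did not overlap for any of the 30 genes, nor for 78.0% of all genes. Gsta2, Car3 and Grm5 were among those with signals under 20 in 1 medium.

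Genes against oxidative and electrophilic stress split into 2 sets. Of 32 tested genes of glutathione, thioredoxin and peroxide metabolism 18 were higher (56.2%) and 9 lower (28.1%), with a median of 0.35, and 7 of the 32 reached 50 in only 1 medium. Gsta2, a glutathione transferase, had signals of 4.30 and 4.91 in MHM + GF and 181 and 190.2 in rcCHIL3, at least 3.7-fold higher (adjusted p = 1.1e-09). Srxn1, the sulfiredoxin that repairs overoxidized peroxiredoxins, had signals of 37 and 37.1 in MHM + GF and 175 and 183 in rcCHIL3, at least 3.6-fold higher. Gclm, the modifier subunit of the enzyme that limits glutathione synthesis, had signals of 129.8 and 154 in MHM + GF and 415 and 500.2 in rcCHIL3, a change of 1.56 (SE 0.11). Hmox1, which breaks down heme, gave 72.9 and 76.2 in MHM + GF and 247 and 249 in rcCHIL3, and its log2 change was 1.5 (SE 0.08). In each of these 4 genes the lower rcCHIL3 array was above the higher MHM + GF array. The genes were picked among rises, so this is no further support. Over all genes the arrays of the 2 media did not overlap for 78.0%. These 4 are known targets of the transcription factor NRF2, and so is the cystine importer gene Slc7a11. Slc7a11 gave 15.3 and 17.3 in MHM + GF and 52.2 and 50.7 in rcCHIL3, just above 50. The targets named were picked among genes that rose, and Gsta2, Srxn1 and Slc7a11 reached 50 only in rcCHIL3. Genes of the list that fell, among them Txn1, were not sorted by this property. The part of NRF2 was not tested.

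Other members of the same enzyme families fell. Gpx3, a secreted glutathione peroxidase, fell from 82.1 and 56.4 in MHM + GF to 2.42 and 2.36 in rcCHIL3, at least 1.4-fold lower (adjusted p = 3.2e-07). Gstt1, a theta class glutathione transferase, was at least 2.6-fold lower, from 134 and 129 in MHM + GF to 21 and 24.1 in rcCHIL3. Txn1, the main cytosolic thioredoxin, was bright in both media and had signals of 3149.6 and 3331 in MHM + GF and 1771 and 1758 in rcCHIL3, a change of -0.87 (SE 0.07). Among metallothioneins, which bind zinc and copper, Mt3 rose by 1.31 from 389 and 451 in MHM + GF to 1136 and 999 in rcCHIL3. Mt1 and Mt2 differed by 0.11 and -0.04 and did not pass the test. With quantile normalization Mt1 passed as well, with 0.22 (limma, adjusted p = 0.00094).

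Heat shock proteins moved in both directions. Hspb8, a small heat shock protein that acts in chaperone-assisted autophagy, had signals of 43.5 and 33 in MHM + GF and 605 and 623 in rcCHIL3, at least 12.3-fold higher (adjusted p = 4.4e-10). Cryab, the small heat shock protein alpha-B crystallin of astrocytes and oligodendrocytes, gave 83.1 and 95.8 in MHM + GF and 343 and 354 in rcCHIL3, and Hspb6 rose by 0.71. Hspb1, the other classical member with a usable signal, fell by at least 2.3-fold from 109.6 and 117 in MHM + GF to 28 and 28.3 in rcCHIL3. Hspa1a and Hspa1b, which encode the stress-inducible HSP70, changed by -2.65 and -2.71. Hspa1b had signals of 1561 and 1364 in MHM + GF and 209.8 and 203 in rcCHIL3. The 2 HSP70 genes are near-identical copies whose probes can share transcripts, so their values are not separate measurements. Hsp90aa1, the inducible cytosolic HSP90, changed by -0.26 (SE 0.06). Over all 52 tested chaperone and chaperonin genes 17 were higher and 16 lower with a median of 0.05, shares of 32.7% and 30.8%. On the deposited scale 9 were higher and 16 lower, with a median of -0.02.

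Subunits of the vacuolar proton pump, which acidifies lysosomes, were higher in rcCHIL3 almost throughout. Of 16 tested subunits 15 were called higher (93.8%) and the other did not pass the test, with a median of 0.53 and a lowest change of 0.15. On the deposited scale 14 were higher, with a median of 0.46. Of the 16 subunits 1 reached 50 in only 1 medium, and of the 15 with signal on all 4 arrays 14 were higher. Atp6v1g1 had signals of 970.0 and 952 in MHM + GF and 1382 and 1490.0 in rcCHIL3, a log2 change of 0.57 (SE 0.06, adjusted p = 2.1e-05). Atp6ap2, an accessory subunit, gave 514 and 454 in MHM + GF and 852 and 803 in rcCHIL3, with all 3 of its probe sets higher. Atp6v0b, part of the proton channel in the membrane, gave 238 and 272 in MHM + GF and 439 and 447 in rcCHIL3. The rcCHIL3 arrays were above the MHM + GF arrays for all 16 subunits, against no overlap in either direction for 78.0% of all genes. The largest change in the list, 0.82 for Atp6v1e1, was less certain because its second probe set was called lower.

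Of 38 tested lysosomal enzymes and membrane proteins 24 were higher (63.2%) and 3 lower (7.89%), with a median of 0.29, or 0.22 on the deposited scale with 16 higher and 3 lower. Ctsl, the cysteine protease cathepsin L, had signals of 675 and 666 in MHM + GF and 1339.8 and 1372 in rcCHIL3, a log2 change of 0.99 (SE 0.06, adjusted p = 6e-08). Arsb, which removes sulfate from chondroitin and dermatan sulfate, had signals of 108 and 130.1 in MHM + GF and 291 and 275 in rcCHIL3, a change of 1.13 (SE 0.09). Lgmn, the asparagine-specific protease legumain, rose by 0.78 and Ctsd, the aspartic protease cathepsin D, by 0.63. Against this direction, Ctsc, which activates serine proteases of immune cells, fell by 1.07 and Ctsz by 0.62. Among 24 autophagy genes 11 were higher (45.8%) and 2 lower (8.33%), and the lipidated membrane protein gene Map1lc3a rose by 0.8 and the cargo receptor gene Sqstm1 by 0.51. The autophagy count dropped to 5 higher on the deposited scale. Proteasome subunits moved little, with 9 of 38 higher and 1 lower and no change above 0.37, and the count of rises was 3 without MHM + GF replicate 1, 4 without rcCHIL3 replicate 2 and 1 on the deposited scale.

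Promoters are shown for 4 genes of the lists that moved mostly one way or held the strongest redox rises, each with a short element that regulators of its pathway are known to bind. The sequences are from RefSeq on the mouse build GRCm38.p6, from 250 bases before to 50 after the start of transcription and in the direction of the gene, with the searched motif in capitals on whichever strand it was found. Ctsd and Atp6v0b (chr7:142387778-142388077, minus strand, and chr4:117887280-117887579, minus strand) are shown for the motif CACGTGAC, a form of the element of lysosomal genes that also contains the E-box CACGTG. Srxn1 (chr2:152105274-152105573, plus strand) is shown for TGANTCAGC, a form of the antioxidant response element. Cyp51 (chr5:4104648-4104947, minus strand) is shown for CCAAT, the binding site of NF-Y, which works together with sterol regulators.
Ctsd: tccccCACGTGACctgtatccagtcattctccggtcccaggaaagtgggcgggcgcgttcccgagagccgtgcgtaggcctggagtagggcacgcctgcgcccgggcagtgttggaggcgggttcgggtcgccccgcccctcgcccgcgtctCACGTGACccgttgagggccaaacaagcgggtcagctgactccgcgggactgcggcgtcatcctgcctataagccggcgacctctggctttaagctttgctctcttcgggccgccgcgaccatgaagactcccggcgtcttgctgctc
Atp6v0b: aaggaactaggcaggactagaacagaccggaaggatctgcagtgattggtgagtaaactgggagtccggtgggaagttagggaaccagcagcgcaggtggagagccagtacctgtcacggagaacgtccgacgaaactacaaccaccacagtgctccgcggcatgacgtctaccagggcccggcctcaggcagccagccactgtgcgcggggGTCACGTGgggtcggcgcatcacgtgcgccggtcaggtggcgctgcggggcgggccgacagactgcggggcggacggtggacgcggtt
Srxn1: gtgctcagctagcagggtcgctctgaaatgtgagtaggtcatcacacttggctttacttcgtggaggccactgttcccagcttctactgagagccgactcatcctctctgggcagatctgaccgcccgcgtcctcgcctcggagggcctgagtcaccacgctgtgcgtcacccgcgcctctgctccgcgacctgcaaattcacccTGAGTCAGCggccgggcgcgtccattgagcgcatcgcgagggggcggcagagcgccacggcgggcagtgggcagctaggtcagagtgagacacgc
Cyp51: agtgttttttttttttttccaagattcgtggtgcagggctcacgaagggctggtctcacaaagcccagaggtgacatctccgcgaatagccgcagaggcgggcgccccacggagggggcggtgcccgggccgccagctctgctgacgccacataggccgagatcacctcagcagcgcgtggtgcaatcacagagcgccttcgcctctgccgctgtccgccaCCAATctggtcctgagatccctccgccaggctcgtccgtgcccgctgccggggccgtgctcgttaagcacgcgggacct
Promoters were matched by symbol for 34 of the 38 lysosomal genes, and 9 of the 34 held CACGTGAC on either strand (26.5%). The motif was in 2.25% of all 32851 promoters and in 5.28% of the 6968 tested genes with a promoter. Among proton pump subunits 2 of 11 matched genes held it, Atp6v0b and Atp6v0d1. CCAAT stood in the promoters of all 15 matched genes of the cholesterol list, against 43.6% of tested genes. TGANTCAGC was found in Srxn1 and Gstp1 of 28 matched antioxidant genes, against 1.16% of tested genes. The looser form TGACNNNGC, whose matches overlap those of TGANTCAGC where its N is C, was in 21.4% of the antioxidant genes and 16.9% of all tested genes. A match of letters is a description of the promoter and not a measured binding site, and the motifs were chosen with the changes of these genes known.

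Of 19 tested genes of cholesterol synthesis and its regulation 14 were lower (73.7%) and 1 was higher, with a median of -0.34. Stard4, which carries sterols between membranes, had signals of 405 and 391 in MHM + GF and 169 and 162 in rcCHIL3, a log2 change of -1.17 (SE 0.08, adjusted p = 2.7e-07). Cyp51, the lanosterol demethylase, had signals of 592 and 651 in MHM + GF and 415 and 366 in rcCHIL3, a change of -0.65 (SE 0.09). Fdps, which makes farnesyl diphosphate, fell by 0.59 and Ebp, a sterol isomerase, by 0.78. Hmgcs1, the HMG-CoA synthase, differed by -0.12 and did not pass the test (adjusted p = 0.16), and 2 of its 5 probe sets were lower. Sc5d was the only member called higher (0.26), but its second probe set was called lower and the call was lost without MHM + GF replicate 2 or rcCHIL3 replicate 1, and on the deposited scale.

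Of 31 genes of fatty acid oxidation and lipid handling 15 were higher (48.4%) and 9 lower (29.0%). Clu, the secreted lipid-binding chaperone clusterin, had signals of 229 and 232 in MHM + GF and 1471 and 1425 in rcCHIL3, a log2 change of 2.55 (SE 0.07, adjusted p = 4.4e-10), with all 4 of its probe sets higher. Acsl6, the acyl-CoA synthetase of brain, gave 127 and 129 in MHM + GF and 688 and 709.6 in rcCHIL3. The cholesterol exporter gene Abca1 rose by 0.73 and the gene of its main acceptor in brain, Apoe, by 0.56. Plin2, which coats lipid droplets, fell by 1.6 from 205 and 189.6 in MHM + GF to 55.6 and 47.6 in rcCHIL3. The fatty acid binding protein gene Fabp7 stayed bright in both media, with signals of 3013 and 2951 in MHM + GF and 2779.8 and 2829.7 in rcCHIL3, and did not pass the test.

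Nucleotide and one-carbon metabolism leaned to lower values. Of 22 tested genes of nucleotide synthesis 14 were lower (63.6%) and 4 higher, with a median of -0.29. The count was 8 lower without rcCHIL3 replicate 2 and 9 without MHM + GF replicate 2. Of the 22 genes 2 reached 50 in only 1 medium, and the 20 with signal on all 4 arrays had 12 lower and 4 higher. Tk1, thymidine kinase of dividing cells, fell by at least 2.0-fold from 103 and 96.2 in MHM + GF to 13 and 12.3 in rcCHIL3. Dck, which phosphorylates deoxycytidine, gave 698 and 736 in MHM + GF and 376 and 401 in rcCHIL3. Aprt, which salvages adenine, was among the 4 higher genes, against 1 higher gene on the deposited scale, with a change of 0.52.

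In serine, glycine and one-carbon metabolism 9 of 16 genes were lower (56.2%) and 2 higher, or 8 and 1 on the deposited scale. Of the 16 genes 2 reached 50 in only 1 medium, and the 13 with signal on all 4 arrays had 6 lower and 2 higher. Cbs, the first enzyme from homocysteine to cysteine, had signals of 142 and 165 in MHM + GF and 36.2 and 38.9 in rcCHIL3, at least 3.1-fold lower (adjusted p = 1.3e-07). Shmt1 and Aldh1l1, which shuttle folate-bound carbon in the cytosol, fell by at least 1.3-fold and 1.24 log2 units. Phgdh and Psph, the first and the last enzyme of serine synthesis, rose by 0.37 and 0.33, the latter not on the deposited scale.

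Energy metabolism shifted little per gene. Of 74 subunits of oxidative phosphorylation 31 were higher (41.9%) and 2 lower, with a median of 0.16. The count was unstable, with 8 higher on the deposited scale, 19 without MHM + GF replicate 1, 20 without rcCHIL3 replicate 1 and 14 without rcCHIL3 replicate 2, while the median stayed above 0 on both scales. Atp5g1, a subunit of the ATP synthase rotor, had the largest change, 0.75 (SE 0.07), with signals of 421 and 457 in MHM + GF and 739 and 760.2 in rcCHIL3. In the citric acid cycle 5 of 17 genes were higher and 3 lower, and the higher count was 3 without MHM + GF replicate 2, without either rcCHIL3 array and on the deposited scale. Suclg2, a subunit of succinyl-CoA ligase, fell by 0.85 from 500.3 and 494 in MHM + GF to 279.7 and 256 in rcCHIL3, whereas its partner Suclg1 rose by 0.38.

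Genes of protein synthesis were mostly level or lower. Of 43 cytosolic ribosomal protein genes 20 were lower (46.5%) and 1 was higher, with a median of -0.16, and no change reached 1 log2 unit. Without MHM + GF replicate 2 or rcCHIL3 replicate 1 the count was 10 lower, and with quantile normalization 13. Rps6, whose protein is phosphorylated on growth signals, had the largest fall, -0.9 (SE 0.08), from 258 and 269 in MHM + GF to 128 and 136 in rcCHIL3. Eif4b and Eif4e, which help to load capped mRNA, fell by 0.62 and 0.55, and Eif4ebp1, which inhibits Eif4e, rose by 0.59. Initiation factors in all had 13 of 43 lower and 5 higher, and without rcCHIL3 replicate 1 or MHM + GF replicate 2 the lower count was 7 and 8. On the deposited scale 2 initiation factors were higher and 13 lower. Nucleolar Ncl and Npm1 fell by 0.61 and 0.53. Over all 58 tested genes of ribosome biogenesis and the nucleolus 15 were lower (25.9%, near the share of all genes) and 7 higher. The median was 0.01, and on the deposited scale 12 were lower and 1 higher. Aminoacyl-tRNA synthetases had 6 of 19 higher (31.6%, near the share of all genes) and 2 lower, or 3 and 2 on the deposited scale. Mitochondrial ribosomal proteins had 13 of 75 higher and 14 lower, but 3 higher and 13 lower on the deposited scale. Without single arrays these counts fell as low as 5 (rcCHIL3 replicate 2) and 6 (MHM + GF replicate 2).

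Genes of the response to amino acid starvation and endoplasmic reticulum stress did not move as a set, with 9 of 29 higher and 12 lower. Atf5, a transcription factor of this response, rose from 74.5 and 64.8 in MHM + GF to 428 and 469 in rcCHIL3, a log2 change of 2.39 (SE 0.10, adjusted p = 5.2e-09). Atf4, its upstream partner, fell by 0.71 from 1092 and 1035 in MHM + GF to 653 and 631 in rcCHIL3. Ddit4, an inhibitor of mTORC1, had signals of 1642 and 1769.5 in MHM + GF and 756 and 795 in rcCHIL3, a change of -1.12 (SE 0.06). Pdia6, a protein disulfide isomerase of the endoplasmic reticulum, fell by 0.86.

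Of 70 splicing factor and hnRNP genes 32 were lower (45.7%) and 5 higher, with a median of -0.17, or -0.24 with 29 lower and 2 higher on the deposited scale. Lsm4, Lsm6 and Lsm2, of the ring that binds U6 RNA and decaying mRNA, fell by 1.1, 0.74 and at least 1.3-fold, and Srsf9 by 0.58 log2 units. Lsm4 had signals of 574 and 502 in MHM + GF and 246 and 235 in rcCHIL3. Of 14 tested histone genes 8 were lower (57.1%) and the other 6 did not pass the test. Of the 14 genes 2 reached 50 in only 1 medium, and of the 11 with signal on all 4 arrays 6 were lower. The linker histone gene H1f2 gave 1456 and 1453 in MHM + GF and 214 and 204 in rcCHIL3, a log2 change of -2.69 (SE 0.07, adjusted p = 3.9e-10), and the replacement histone gene H2az2 fell by 0.96. Many histone genes are made in S phase. The mitosis genes Cdca3, Ccnb2 and Cenpa fell in the same arrays by at least 8.2-fold, at least 6.7-fold and 2.88 log2 units. They were taken from the 10 largest falls. The part of the cell cycle in the histone changes was not tested. Of 82 chromatin modifiers and remodellers 21 were lower (25.6%, near the share of all genes) and 10 higher (12.2%), or 6 higher on the deposited scale, with a median of -0.05. Hmgb2 and Hmgn5, which bend or loosen chromatin, fell by 1.5 and 1.35. In contrast Sirt2, a tubulin and histone deacetylase of myelinating glia, rose by 1.07 from 819.8 and 831 in MHM + GF to 1756 and 1749 in rcCHIL3. Chd3, a remodelling ATPase, had signals of 15.3 and 21.7 in MHM + GF and 93.6 and 113 in rcCHIL3. Zinc finger genes named Zfp had 51 of 163 higher (31.3%, near the share of all genes) and 18 lower. The lower count was 10 without MHM + GF replicate 1, and the higher count was 27 on the deposited scale.

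**Figure D2:**
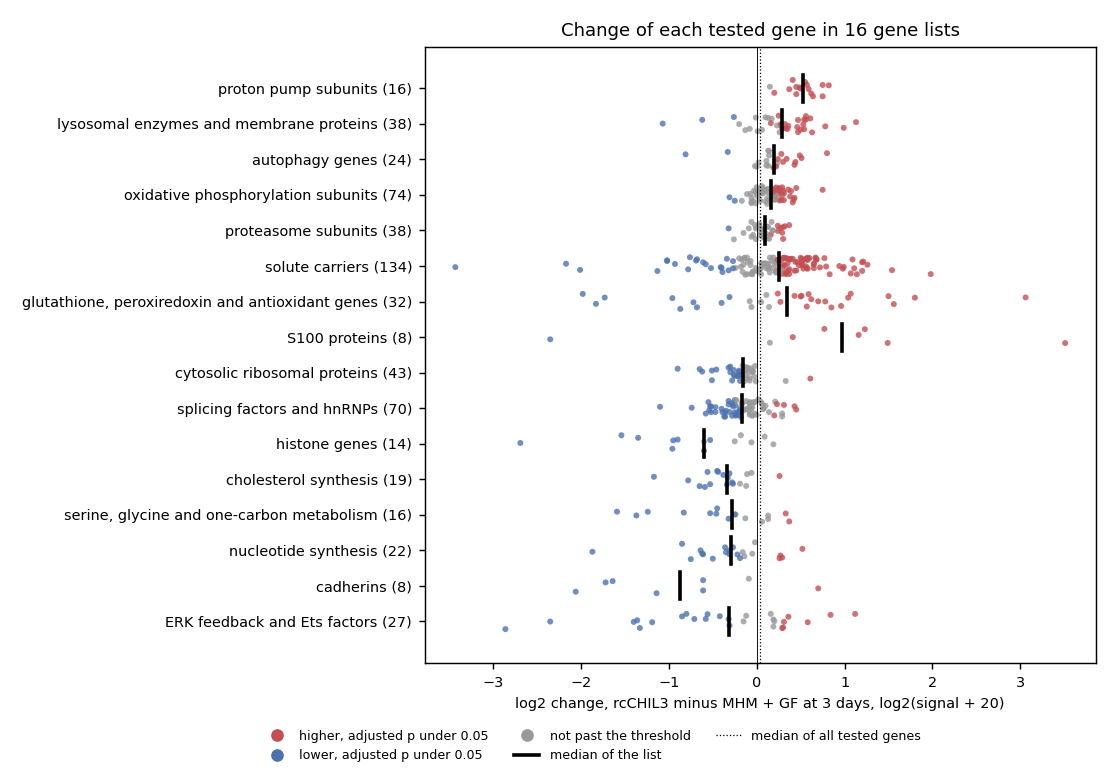
log2 change of each tested gene in 16 lists, with the number of tested genes in brackets. Red points were called higher and blue points lower, and the thick bar is the median of the list. Proton pump subunits lay to the right of 0 in full, with a median of 0.53, while cholesterol synthesis had a median of -0.34 and histone genes of -0.60.

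Of 134 solute carriers 68 were higher (50.7%) and 21 lower (15.7%), with a median of 0.25 (0.18 on the deposited scale, with 49 higher and 20 lower). Of the 134 genes 17 reached 50 in only 1 medium. Slc6a11, the GABA transporter GAT3 of astrocytes, had signals of 467 and 587 in MHM + GF and 27.5 and 33.9 in rcCHIL3, at least 10.5-fold lower (adjusted p = 3e-09). Slc15a2, which imports small peptides, gave 836 and 809.9 in MHM + GF and 171 and 163 in rcCHIL3, and all 3 of its probe sets were lower. Slc1a1, a glutamate transporter that also carries cysteine, had signals of 230.1 and 237 in MHM + GF and 707 and 731 in rcCHIL3, a change of 1.54 (SE 0.08). The glial glutamate transporter gene Slc1a3 fell by 0.61. Slc1a2 differed by -0.24 and did not pass the test, but it was called lower on the deposited scale and with the 4 arrays alone. The largest rise was that of the mitochondrial pyrimidine carrier gene Slc25a33 (1.98), and the creatine transporter gene Slc6a8 rose by 1.21. Among ABC transporters Abcc4, which exports cyclic nucleotides and conjugates, rose by 1.68 log2 units, and Abcg2, the efflux pump that marks many stem cells, fell by at least 2.4-fold.

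Of 5 tested genes of sodium pump subunits and FXYD proteins 4 were higher (80.0%). The 5 were Atp1b1, Atp1b2, Atp1b3, Fxyd1 and Fxyd6, with no alpha subunit. Of these 1 reached 50 in only 1 medium, and of the 4 with signal on all 4 arrays 3 were higher. Fxyd1, a phospholemman that tunes the pump, had signals of 16 and 18.5 in MHM + GF and 225 and 222 in rcCHIL3, at least 4.5-fold higher (adjusted p = 1.2e-09). Fxyd6 had signals of 153 and 158 in MHM + GF and 809.6 and 797 in rcCHIL3, a change of 2.23 (SE 0.06). The beta subunits Atp1b1 and Atp1b2 rose by 1.76 and 0.77, while Atp1b3 did not pass the test (-0.06). The water channel gene Aqp4, the only tested aquaporin, gave 738 and 717 in MHM + GF and 1959 and 1973 in rcCHIL3, a change of 1.41 (SE 0.05).

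Carbonic anhydrases, which set carbon dioxide and bicarbonate in balance, had 4 of 6 tested genes lower and 1 higher, but 3 of the 6 reached 50 in only 1 medium and 2 had signal on all 4 arrays, both lower. Besides Car3, Car2 fell by 1.37 from 579 and 608 in MHM + GF to 236 and 201 in rcCHIL3, Car8 by 1.27 log2 units and Car12 by at least 1.1-fold. Car11, which lacks enzyme activity, rose by at least 1.7-fold.

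Potassium channel genes were divided 4 to 4 among 11. Kcna1, a voltage-gated channel of axons, had signals of 18.8 and 10.5 in MHM + GF and 156 and 135 in rcCHIL3, at least 2.9-fold higher (adjusted p = 7.1e-08). Kcnmb4, the neuronal beta subunit of BK channels, had signals of 406 and 399 in MHM + GF and 98.3 and 85 in rcCHIL3, a change of -1.92 (SE 0.09). Kcnd2, an A-type channel, fell by 1.62. Kcnj10, the inward rectifier of astrocytes, rose by 0.52.

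Metabotropic glutamate receptors fell most among transmitter receptors. Grm5 had signals of 396 and 445 in MHM + GF and 17.1 and 13.4 in rcCHIL3, at least 8.4-fold lower (adjusted p = 6.5e-10), and both of its probe sets were lower. Grm3 fell by at least 3.2-fold from 149.6 and 169.6 in MHM + GF to 15.6 and 14.2 in rcCHIL3. The glycine receptor gene Glrb rose by 0.96 and the kainate receptor gene Grik3 by 0.92. Of 12 tested genes 4 were higher and 5 lower, and 4 reached 50 in only 1 medium. With signal on all 4 arrays 8 genes remained, 3 higher and 2 lower.

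Of 32 G protein-coupled and adhesion receptors 16 were higher and 8 lower, or 5 lower without rcCHIL3 replicate 1, and 5 of the 32 reached 50 in only 1 medium. Cxcr4, the receptor of the chemokine CXCL12, had signals of 30.7 and 31.2 in MHM + GF and 227 and 202 in rcCHIL3, at least 4.3-fold higher (adjusted p = 1.8e-08). S1pr3, a receptor of sphingosine-1-phosphate, gave 28.1 and 32.2 in MHM + GF and 169 and 159 in rcCHIL3, and the orphan receptor gene Gpr37l1 rose by at least 2.3-fold. Ednrb, the endothelin receptor of glia, fell by 0.38. Behind the receptors, Pde4b and Pde4d, which break down cyclic AMP, rose by 1.19 and 0.95. The phosphodiesterase genes Pde1b and Pde2a, which take calcium or cyclic GMP as a signal, fell by at least 3.2-fold and 1.28 log2 units.

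Of 8 tested cadherins 6 were lower (75.0%) and 1 was higher, with a median of -0.87. Of the 8 genes 3 reached 50 in only 1 medium, and of the 4 with signal on all 4 arrays 3 were lower. Cdh4 (R-cadherin) had signals of 207 and 227 in MHM + GF and 48 and 56.1 in rcCHIL3, a log2 change of -1.72 (SE 0.10, adjusted p = 7.7e-08). Cdh10 had signals of 235 and 207 in MHM + GF and 60.7 and 53.8 in rcCHIL3, a change of -1.64 (SE 0.10). Cdh13, anchored by lipid, fell by 1.14, and Cdh2, the N-cadherin of neural progenitors, by 0.61. Cdh22 fell by at least 2.7-fold and Cdh6 rose by at least 1.6-fold. Of 9 laminin and integrin genes 4 were lower and 2 higher, or 1 higher on the deposited scale, and Itgb5 and Itgav fell by 0.93 and 0.77. Adhesion proteins of the immunoglobulin and leucine-rich families had 15 of 30 higher and 9 lower (30.0%), and 6 of the 30 reached 50 in only 1 medium. Nfasc, which gathers channels at nodes of Ranvier, and Cadm1 rose by 1.96 and 1.44 log2 units, and Flrt3 and Chl1 fell by at least 1.6-fold and 0.75 log2 units.

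Matrix genes moved strongly in both directions, with 13 of 34 proteoglycan and matrix protein genes higher and 15 lower. With signal on all 4 arrays the counts were 11 and 10 of 26. Efemp1, a fibulin, had signals of 15 and 24.6 in MHM + GF and 305 and 336 in rcCHIL3, at least 6.4-fold higher (adjusted p = 1.7e-09). Another fibulin, Fbln2, had signals of 592 and 668 in MHM + GF and 97.9 and 89.6 in rcCHIL3, a change of -2.51 (SE 0.11). Fn1, fibronectin, fell by at least 3.9-fold from 194 and 191 in MHM + GF to 26.4 and 16.7 in rcCHIL3, and the heparan sulfate proteoglycan gene Sdc3 fell by 2.04 log2 units. The hyaluronan receptor gene Cd44 gave 225 and 215 in MHM + GF and 685 and 677 in rcCHIL3, and Tnr, a tenascin of perineuronal matrix, rose by 1.14. The related Tnc fell by 0.3. Of 11 tested collagens 6 were higher and 5 lower, but 4 reached 50 in only 1 medium, and the 6 with signal on all 4 arrays were 3 higher and 3 lower. Col9a3 and Col9a1, chains of collagen IX, rose by 1.5 and 1.03 log2 units, and Col5a2, a fibrillar chain, fell by at least 6.0-fold from 300.3 and 299 in MHM + GF to 35.4 and 36.3 in rcCHIL3. Among proteases and their inhibitors Adam12 and Timp4 fell by at least 4.7-fold and at least 4.8-fold, and Timp2 rose by 1.06 log2 units.

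Guidance genes were also divided. Sema3b, a secreted semaphorin, rose by at least 1.8-fold from 7.74 and 4.09 in MHM + GF to 84.6 and 91.2 in rcCHIL3. Epha4, a receptor of both ephrin classes, rose by at least 3.5-fold. Robo1, the receptor of slits, fell by at least 3.2-fold, and the netrin genes Ntn1 and Ntn4 by 0.87 and 1.03 log2 units. Semaphorins, plexins and neuropilins had 12 of 21 higher and 6 lower, or 3 lower without MHM + GF replicate 1 or rcCHIL3 replicate 2, and 5 of the 21 reached 50 in only 1 medium.

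Among secreted growth regulators 3 IGF binding proteins fell. Igfbp2, which the choroid plexus and glia secrete, had signals of 2129.6 and 2126 in MHM + GF and 182 and 159 in rcCHIL3, a log2 change of -3.49 (SE 0.08, adjusted p = 3.9e-10). Igfbp4 had signals of 391 and 398 in MHM + GF and 37.5 and 31.8 in rcCHIL3, at least 7.9-fold lower, with all 4 probe sets lower. Igfbp3 fell by 2.26. Kitl, the ligand of Kit, fell by at least 3.2-fold and pleiotrophin (Ptn) by 0.9 log2 units. Il6st, the gp130 receptor chain shared by interleukin 6 and LIF, had signals of 79.2 and 85.2 in MHM + GF and 429 and 399.9 in rcCHIL3, a change of 2.09 (SE 0.07). Gas6, the ligand of TAM receptors, rose by 1.77. In all 12 of 29 growth factor genes of this list were higher and 13 lower, and 6 reached 50 in only 1 medium.

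ERK feedback genes were lower in 14 of 27 cases (51.9%) and higher in 7, with a median of -0.31. Without MHM + GF replicate 2 or rcCHIL3 replicate 1 the higher count was 4, and on the deposited scale 3. Of the 27 genes 7 reached 50 in only 1 medium. The 17 with signal on all 4 arrays had 5 higher, 7 lower and a median of 0.16. The sign of the median thus turned, while lower calls still outnumbered higher ones. Genes that fell under 50 in rcCHIL3, such as Etv5, are not among the 17. Etv5, an Ets factor induced by FGF, had signals of 399 and 324 in MHM + GF and 35.8 and 29.1 in rcCHIL3, at least 7.2-fold lower (adjusted p = 4.9e-09). Dusp6, the ERK phosphatase, had signals of 241 and 232 in MHM + GF and 78.7 and 75 in rcCHIL3, a change of -1.4 (SE 0.09). The receptor gene Egfr fell by 1.83 and Fgfr3 by 0.85, while the ligand gene Tgfa rose by 1.03. Genes of this list are known to respond to EGF and FGF-2. The part of these factors, of CHIL3 and of conditioning in these changes was not tested and cannot be told apart here. Immediate early genes had 11 of 25 higher and 4 lower, or 7 and 4 on the deposited scale. Egr1 gave 2601 and 2359.7 in MHM + GF and 2489.6 and 2651 in rcCHIL3 and did not pass the test, with overlapping arrays.

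In the BMP and TGF-beta pathway 14 of 31 genes were higher (45.2%) and 4 lower (12.9%). The ligand genes Tgfb2 and Bmp4 rose by 1.58 and 1.43. The genes Id1, Id2, Id3 and Id4 rose by 0.78, 0.59, 0.7 and 1.79. A link between these rises and those of the ligand genes was not tested. Id4 gave 391 and 392 in MHM + GF and 1431 and 1385 in rcCHIL3. Notch ligand genes fell, Dll1 by 1.42, Dll3 by 1.51 log2 units and Jag1 by at least 2.4-fold, and the target gene Hes1 by at least 1.6-fold. The receptor genes Notch1 and Notch2 differed by -0.1 and 0.54, and Notch2 alone passed the test.

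Of 21 nuclear factor I, TEAD, STAT, IRF and C/EBP factors 11 were higher (52.4%) and 7 lower, with 7 and 6 on the deposited scale and 4 lower without rcCHIL3 replicate 1. Kruppel-like and Sp factors had 2 of 14 higher and 4 lower, and bHLH factors 3 of 18 higher and 8 lower, or 1 and 7 on the deposited scale. Cebpd, a C/EBP factor of the interleukin 6 and glucocorticoid response, had signals of 82.2 and 80.9 in MHM + GF and 340.5 and 364 in rcCHIL3, a log2 change of 1.87 (SE 0.08, adjusted p = 4.8e-09). Klf9, a target of glucocorticoid and thyroid hormone, had signals of 276 and 313 in MHM + GF and 993 and 1042 in rcCHIL3, a change of 1.73 (SE 0.08), with all 5 probe sets higher. Maf rose by 1.39 and Epas1, an oxygen-regulated factor that astrocytes and vessels express, by 1.59. Nfic rose by 1.34 while its relative Nfib fell by 0.88, with all 6 Nfib probe sets lower. Tead2, the effector of YAP in progenitors, fell by 1.18 and Klf4 by 1.24. Of 24 homeobox genes 12 were lower and 7 higher, and 5 reached 50 in only 1 medium. Meis1 and Prrx1 fell by 0.99 log2 units and at least 1.9-fold, whereas Dlx1 and Dlx2 rose by at least 4.1-fold and 1.46 log2 units.

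Cytoskeletal genes split between family members. Tagln3, a neuronal calponin-like protein, had signals of 46.8 and 39 in MHM + GF and 741 and 788 in rcCHIL3, at least 15.3-fold higher (adjusted p = 3e-10). Its relative Tagln2 had signals of 285 and 293 in MHM + GF and 34.1 and 31.2 in rcCHIL3, at least 5.8-fold lower. Cardiac actin (Actc1) fell by at least 3.3-fold, the tropomyosin genes Tpm1 and Tpm4 by 0.84 and 0.83 log2 units, and Myl9, a myosin light chain, rose by 1.24 log2 units. Cytoplasmic actin (Actg1) gave 3017 and 3031 in MHM + GF and 3005 and 3056 in rcCHIL3 and did not pass the test. Of 61 tubulin, kinesin and microtubule genes 21 were higher and 19 lower, or 16 and 19 on the deposited scale, and 16 reached 50 in only 1 medium. Tppp3, Tuba4a and Map1b rose by at least 5.6-fold, 1.83 and 1.59 log2 units, and the mitotic kinesin genes Kif22 and Kif23 fell by at least 4.6-fold and at least 2.7-fold. Rhob, a stress-induced GTPase, rose by 1.54 log2 units and Rab3b, a vesicle GTPase, fell by at least 2.4-fold.

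Calcium-binding families were divided as well. Of 8 tested genes named S100, 6 were higher and 1 lower, and the eighth, S100pbp, encodes a binding partner. Of the 8 genes 1 reached 50 in only 1 medium, and the 7 with signal on all 4 arrays had 5 higher and 1 lower. S100b, S100a6 and S100a1 rose by 1.49, 1.23 and 1.16. S100a10, the partner of annexin A2, had signals of 357 and 384 in MHM + GF and 55.5 and 57.7 in rcCHIL3, a log2 change of -2.35 (SE 0.09, adjusted p = 3.6e-09). Anxa2 itself had signals of 342 and 352 in MHM + GF and 66.3 and 59.7 in rcCHIL3, a change of -2.14 (SE 0.08). Anxa3 fell by at least 4.8-fold and Anxa5 rose by 0.67 log2 units. Galectin-1 (Lgals1) gave 1877 and 1995 in MHM + GF and 328 and 367 in rcCHIL3, and galectin-3 (Lgals3) rose by at least 2.2-fold. Among immune genes 5 of 12 interferon response genes were higher and 4 lower, or 3 and 4 on the deposited scale. Of the 12 genes 4 reached 50 in only 1 medium, and the 7 with signal on all 4 arrays had 1 higher and 3 lower. H2-K1, a class I antigen, fell by 0.92.

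Markers were read as a check of the labelled cells, and in pooled RNA fewer cells of a type and less RNA per cell cannot be told apart. All 14 neural stem and progenitor markers on the array reached the filter, and Sox2 had signals of 1936 and 1956 in MHM + GF and 1685 and 1770.2 in rcCHIL3, a small change of -0.17 whose call was lost when any 1 of the 4 arrays was left out. Of the 14 genes 7 were lower and 4 higher. Among the 14 genes 2 reached 50 in only 1 medium, and the 12 with signal on all 4 arrays had 5 lower and 4 higher. Nes, the nestin gene, had signals of 187 and 186 in MHM + GF and 24.9 and 25.5 in rcCHIL3, at least 3.7-fold lower (adjusted p = 1.2e-07). Vim had signals of 2892 and 3001 in MHM + GF and 1413 and 1276 in rcCHIL3, a change of -1.12 (SE 0.06). The summed signal of the 14 markers was 12903 to 12998 in MHM + GF and 9752 to 9803 in rcCHIL3.

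Of 23 tested astrocyte markers 13 were higher (56.5%) and 5 lower. Besides Gfap, Clu and Aqp4, Agt rose by 2.09 and S100b by 1.49, while Aldh1l1 and Aldoc, general astrocyte markers, fell by 1.24 and 0.42. The sum of all 24 on the array was 16335 to 17051 in MHM + GF and 22775 to 23315 in rcCHIL3.

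For myelinating oligodendrocytes 8 of 10 tested markers were higher (80.0%) and Car2 was lower. Of the 10 markers 2 reached 50 in only 1 medium, and the 8 with signal on all 4 arrays had 6 higher and 1 lower. Ugt8a, which makes galactocerebroside, gave 360.1 and 356 in MHM + GF and 1639.6 and 1677 in rcCHIL3, and Cldn11 gave 119 and 113 in MHM + GF and 621 and 603 in rcCHIL3. The sum over the 18 markers on the array was 3822 to 3835 in MHM + GF and 7399 to 7428 in rcCHIL3, and Mog, a late marker, stayed under 50 on all 4 arrays. Oligodendrocyte progenitor markers had 9 of 15 higher and 5 lower. Among mature neuron markers only 5 of 18 reached the filter, with 3 higher and 2 lower and 3 of them above 50 in only 1 medium, and Rbfox3 and Slc17a7 stayed under 50. No microglia, macrophage or endothelial marker reached 50 on any of the 4 arrays, with highest signals of 21.5 and 30.9. The part of these marker shifts in the changes above was not tested.

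**Figure D3:**
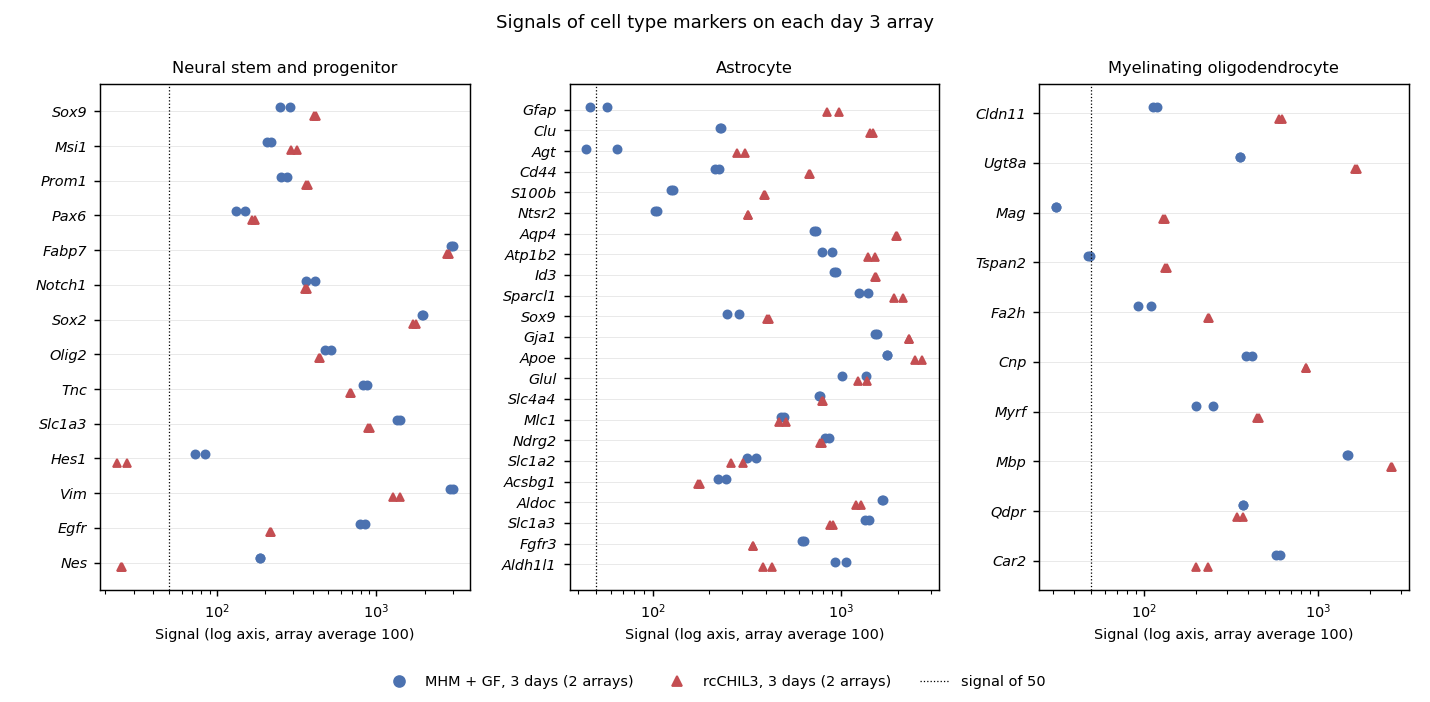
Signals of the tested neural stem and progenitor, astrocyte and myelinating oligodendrocyte markers on the 4 arrays of day 3, on a log axis, ordered by log2 change. Circles are MHM + GF, triangles are rcCHIL3 and the dotted line marks 50. Each panel holds genes that rose and genes that fell, from Sox9 to Nes, from Gfap to Aldh1l1 and from Cldn11 to Car2.

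The day 3 difference between the media was not the one seen at 7 days for many genes. The interaction term of the same model, effect at 7 days minus effect at 3 days, passed the test for 3656 of 8429 genes (43.4%). At 7 days 1852 genes were called higher (22.0%) and 1839 lower (21.8%). Of the 4516 genes called at 3 days (53.6%) 1599 were called in the same direction at 7 days, 691 in the opposite direction and 2226 were not called at 7 days. Cholesterol synthesis, with 14 of 19 lower at 3 days, had 16 higher at 7 days, with medians of -0.34 and 0.42. Proton pump subunits had 15 of 16 higher at 3 days and 5 at 7 days. Ddit4 changed by -1.12 at 3 days and 1.02 at 7 days, a difference of 2.13 (SE 0.09, adjusted p = 2.6e-08). In contrast Klf9 (1.73 and 2.56) and Acsl6 (2.28 and 1.71) were higher on both days.

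**Figure D4:**
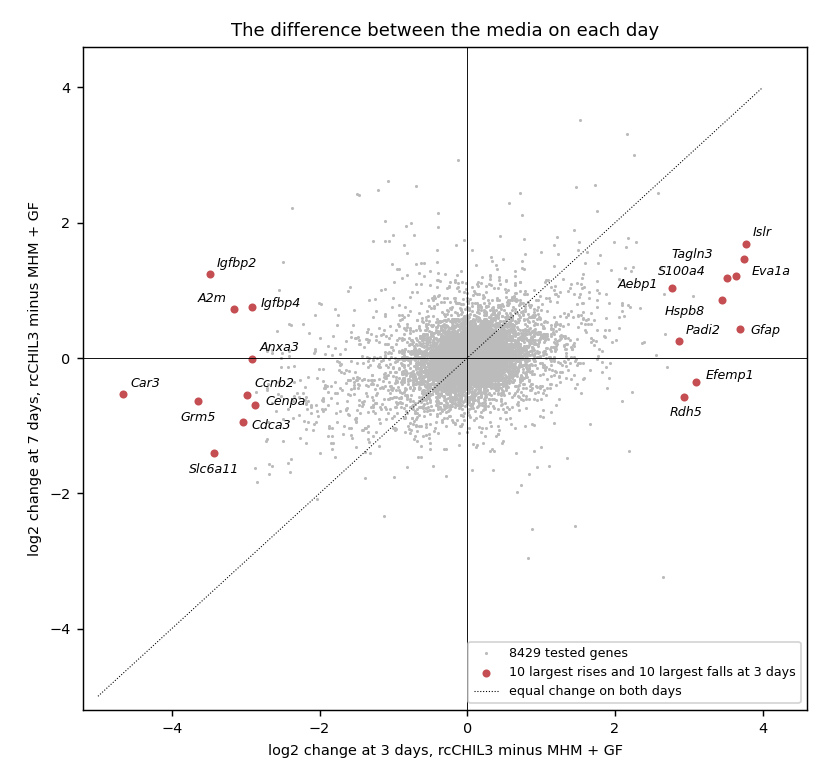
log2 change between the media at 7 days against that at 3 days for 8429 tested genes, in grey, with the 10 largest rises and 10 largest falls at 3 days in red and named. The dotted line marks equal changes. All 20 named genes lay nearer to 0 at 7 days than at 3 days, and Igfbp2, A2m, Igfbp4, Efemp1 and Rdh5 lay on the other side of 0.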

How the data were processed

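RNA of neurosphere cells was hybridized to Affymetrix Mouse Genome 430 2.0 arrays, 2 for each of 4 groups. The authors deposited 1 linear signal intensity per probe set and array, made with MAS5, and Affymetrix Expression Console 1.1 is named in the submitters' processing notes. Mean deposited signals ran from 267.3 to 316.6 and the 2% trimmed means differed by 17.4%, so every array was rescaled to a mean of 100.

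Array controls (64 probe sets) were left out. Probe sets reaching 50 on 2 of the 4 day 3 arrays were tested with limma 3.58.1 (R 4.3.3) on log2(signal + 20), with 4 group means, no covariate, eBayes with a trend and Benjamini-Hochberg adjustment. All 8 arrays entered the fit and shared 1 estimate of the spread. Adjusted p-values in the text are from this fit. The model was also run on 14580 simulated probe sets laid out like the day 3 comparison. It picked up 62 of the 67 that had been given a 1.5-fold change. All 67 given a 2-fold and all 66 given a 4-fold change were picked up as well, and 8 unchanged ones were called wrongly. Far fewer probe sets differed in this simulation than the 7556 called in the data, so its rates need not hold for the data.

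Of the 45101 probe sets 34958 carried 1 gene symbol, 932 several and 9211 none in the platform annotation, and only those with 1 were named. The brightest probe set stood for a gene. Of 3034 genes with several probe sets 63 were called both ways. A naming rule took the 10 largest rises and falls among called genes with a mean signal of 200 or more and no overlap of the arrays. For each list it took up to 4 called members in the leading and 2 in the other direction and the member with the highest signal. It also took all members of marker lists and of lists with 8 tested genes or fewer. The rule gave 540 genes. The text does not follow it in full, gives 218 tested genes with values and leaves out many others, such as Cdh11 and Cdh20. The members and the 85 gene lists were chosen with earlier results of these data known, and some symbols that matched a list's pattern without belonging to the family were removed after values were seen. S100pbp, Hspb11 and H2-Ke6 remain in their lists. Motifs were searched on both strands of RefSeq promoters.

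Alternatives were the offset, the filter, the deposited scale, quantile and median centring, the 4 arrays alone, a replicate block, the eBayes settings, the mean over probe sets, leaving out each array and the methods' t test. Values were computed with Python 3.11.15, pandas 2.3.3 and numpy 2.4.6.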

Additional observations from a re-analysis of the deposited data

Results flagged for a closer look

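The difference between the media changed from 3 to 7 days for the genes below, by the interaction term of the limma model, which is the effect at 7 days minus the effect at 3 days in log2 units and passed the adjusted threshold for each of them. For the 10 largest rises at 3 days it was negative: Islr (-2.08), Eva1a (-2.29), Gfap (-3.26), Tagln3 (-2.43), S100a4 (-2.34), Hspb8 (-2.6), Efemp1 (-3.46), Rdh5 (-3.5), Padi2 (-2.61) and Aebp1 (-1.75). For the 10 largest falls it was positive: Car3 (4.13), Grm5 (3.0), Igfbp2 (4.73), Slc6a11 (2.02), A2m (3.88), Cdca3 (2.1), Ccnb2 (2.44), Igfbp4 (3.68), Anxa3 (2.9) and Cenpa (2.19). These 20 genes were picked for the size of their effect at 3 days, so their values are a description.

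The other genes were called in opposite directions at 3 and at 7 days. Among sterol genes the interaction was positive in all 4 named, Cyp51 (1.09), Ebp (1.2), Fdps (0.94) and Stard4 (1.51). Ion and transmitter genes were Car12 (3.13), Car2 (1.65), Car8 (1.88), Fxyd6 (-2.72) and Grik3 (-1.44). Adhesion and matrix genes were Fn1 (4.57), Cdh22 (2.69), Chl1 (1.72), Itgav (1.21), Timp2 (-1.6) and Col9a1 (-1.53). Transcription factor genes were Dlx1 (-5.88), Dlx2 (-3.94) and Klf4 (1.93), and signalling genes were Tgfb2 (-1.88) and Fgfr3 (1.13). Cytoskeletal and annexin genes were Tagln2 (3.55), Myl9 (-1.5) and Anxa2 (2.51). The remaining ones were Abca1 (-1.34), Ddit4 (2.13), Eif4e (1.0), Gpx3 (2.78), H2-K1 (1.4), Phgdh (-0.79) and Suclg2 (1.21). The value is signed, so a positive value means that rcCHIL3 minus MHM + GF was more positive at 7 days than at 3 days, which for a gene that fell at 3 days is a smaller or a reversed effect. Where the signals of a medium were under 50, the value depends on the offset of 20. Each group held 2 arrays, and the sets of day 3 and day 7 arrays share none.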

How the results depend on the processing

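Among 14580 probe sets 4109 were called higher and 3447 lower. On the deposited scale 2577 were higher, gene lists had 454 higher in place of 690 of 2080 genes, and the day 7 minus day 3 difference was lower for 1493 probe sets. With the methods' t test after Benjamini-Hochberg adjustment 1381 and 1226 probe sets passed, and 143 and 141 of the named genes. The causes were not tested. Leaving out 1 array gave 3119 to 4190 probe sets higher and 2661 to 3534 lower, 555 to 708 list genes higher and 457 to 564 lower, and 240 to 263 named genes higher and 220 to 231 lower. The difference between days was then higher for 2197 to 2779 and lower for 2540 to 3079 probe sets.

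Arrays with the same replicate number did not deviate together, with correlations from -0.019 to 0.116 over 6 pairs of groups, so the numbers were not taken to pair arrays. With the number as a replicate block 4198 probe sets were higher and 3565 lower. Changes of sign were counted only for genes called in the main fit or in the alternative. So counted, none of the 218 genes given with values changed sign under any alternative in which they were tested. The mean over the probe sets of a gene was not checked for these genes. Sign changes of genes called in neither fit were not counted. The filters of 100 on 2 arrays and of 50 on all 4 tested 205 and 154 of the 218 genes. The t test lost 43 of their calls, and each other alternative checked for them lost at most 2, all among Sc5d, Sox2 and Psph. Calls were gained for Mt1, Egr1 and Actg1 with quantile normalization, and for Slc1a2 on the deposited scale, with the 4 arrays alone and without either rcCHIL3 array of day 7. With 2 arrays a group, precision is limited by the number of arrays, and a medium with both signals under 50 gives only a bound on the fold.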
